A study of Mus musculus with 16 samples.

Results

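The genes that surround Itgad on mouse chromosome 7 were compared between libraries labelled αD KO and libraries labelled WT. They are all genes of the deposited count table that lie wholly between positions 123000000 and 133000000 of chromosome 7 (GRCm38), with Itgal, Itgam, Itgax, Pycard and Aldoa left out. This rule uses position and no measured value. It gave 304 of the 49315 genes in the table, and Itgad itself is among them. Of the 304 genes, 153 are annotated as protein coding and 151 are pseudogenes, long non-coding RNAs, small RNAs and other classes. No count was found in any library for 18 of them, and 125 had counts in every library.

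Neutrophils (Ly6G+/CD11b+/CD45.2+ by sorting) were taken from blood or lung, from male mice of 8 to 12 weeks that were WT or αD KO and either untreated (0h) or 12 hours after cecal ligation and puncture (CLP), a surgical model of abdominal sepsis. The αD KO mice came from a commercial supplier, and the targeted part of the gene is not given in the sources used here. There are 8 groups, from 2 genotypes, 2 tissues and 2 times, with 2 samples and 3 count files each. Sample 1 gave the files named libraries 1a and 1b here, and sample 2 gave library 2. Counts of 1a and 1b in the same group were further apart than repeated sequencing of 1 library would be (chi-square per degree of freedom 63.5 to 328.5), so each file was treated as a library with n = 3 per group. The study describes its RNA-seq as triplicates, while the labels give 2 samples per group. Whether 1a and 1b came from separate mice is not given in the sources used here, so the p-values measure the spread between these libraries, which may be partly technical.

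Itgad encodes αD (CD11d), an integrin chain that pairs with the β2 chain (CD18) on leukocytes, where β2 integrins mediate adhesion and migration. The chains αL, αM and αX are encoded by genes in the same part of chromosome 7, and αM and αX lie next to Itgad. As general background, genes close to a targeted locus are inherited together with it in crosses, and a targeted locus and its neighbours are therefore compared when the expression of a knockout line is described.

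Total counts per library were 5753476 to 29984954 (median 18741144). Defining neutrophil genes (S100a8, S100a9, Ly6g, Csf3r, Cxcr2, Retnlg, Mmp8 and Mmp9) had counts in every group and summed to 29407 to 212372 CPM, the counts scaled to library size with TMM factors. Along the change from 0h to 12 hours in WT lung, scaled to 0 at WT 0h and 1 at WT 12 hours over 1340 genes, the position of library 2 labelled αD KO lung 0h was 1.029. The libraries labelled αD KO lung 12h 1a and 2 lay at 0.0887 and 0.192. These 3 libraries go against the time on their labels, and calls and fold changes in lung are given again without them for the genes the results turn on, an alternative chosen after seeing the data. The 8 libraries 1b also stood apart as a set. They had counts in 29162 to 38844 genes, against 17132 to 32666 in the other 16, and their deviations from the group means correlated in each of the 28 pairs of groups (lowest 0.304). Counts of calls are therefore also given without the libraries 1b, an alternative chosen after seeing the data. Differences were tested with edgeR's quasi-likelihood test with Benjamini-Hochberg adjustment over all genes tested, and a gene was called at an adjusted p under 0.05 with an absolute log2 fold change over 1.

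Itgad, the targeted gene (ENSMUSG00000070369, chromosome 7, 128154376 to 128223816, plus strand), was higher in every library labelled αD KO than in every library labelled WT. In blood at 0h its level was 96.5, 62.8 and 50.7 CPM (1a, 1b and 2) under the αD KO label and 2.83, 2.44 and 3.16 CPM under the WT label. In lung at 0h it was 51.9, 68.0 and 17.7 CPM against 1.35, 3.67 and 1.74 CPM. The third value of the labelled αD KO lung group, the lowest, is that of the library that lay at 1.029. At 12 hours the blood libraries labelled αD KO had 15.7, 12.5 and 21.2 CPM and those labelled WT had 0.0583, 0.402 and 0.139 CPM. The lung values at 12 hours were 82.8, 14.1 and 102 CPM against 0.212, 0.882 and 0.233 CPM. Higher Itgad counts go against the plain reading of a knockout label, so groups are named by their labels throughout. The counts are per gene and not per exon, and a transcript of the targeted allele cannot be told apart from an intact transcript.

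Over all 24 libraries, with a single difference between labels shared by the 4 pairs of groups, 4 of the 199 flanking genes tested were called, and all 4 were higher in the libraries labelled αD KO. Of the 27145 genes tested in all, 0.0442% were called (12 genes), and 0.0221% were called as higher. The 4 genes were Gdpd3, Itgad, Gm44850 and 4931431B13Rik. Itgad and Gdpd3 were above the filter on low counts (0.534 CPM in at least 3 libraries) in libraries of both labels. Gm44850 and 4931431B13Rik passed it only through the libraries labelled αD KO, so the direction of these 2 was set by the filter. Of the 154 flanking genes that passed through both labels, 2 were called, and of all 20614 such genes 0.0388%. Without the libraries 1b the same 4 genes were called (0.0552% of all genes). By position, the last 3 of the 4 go together, since Gm44850 and 4931431B13Rik are annotated inside Itgad on the minus strand. Without the genes that overlap Itgad, 1 of 195 tested genes was called (0.513%). Among the 199, the log2 fold change was above 0 for 123 and below 0 for 76, with a median of 0.06 against 0.03 over all genes tested. The median absolute log2 fold change was 0.18 among them and 0.22 over all genes.

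**Figure D1:**
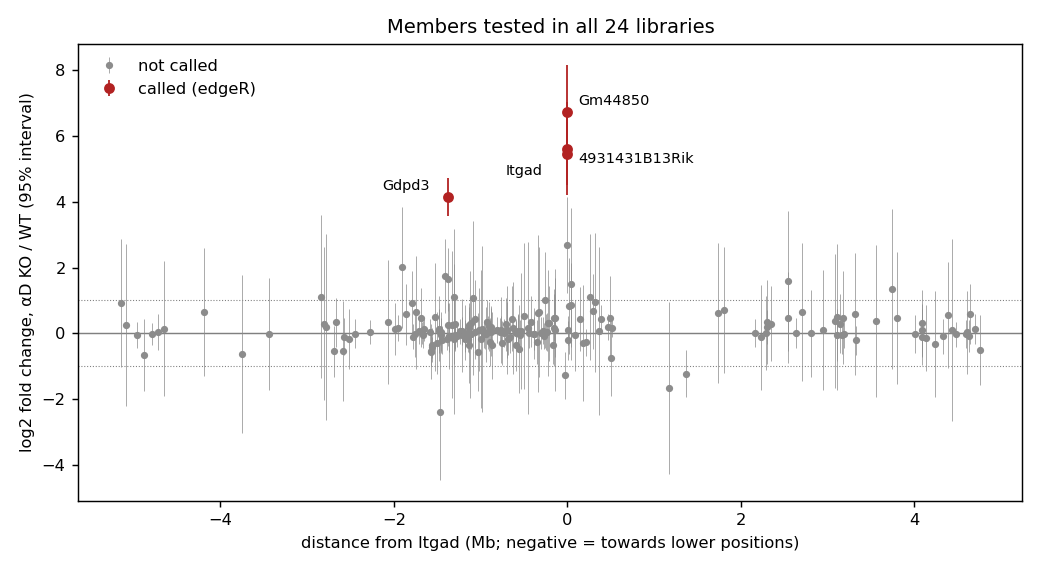
Log2 fold change between libraries labelled αD KO and WT (y axis, 12 libraries each, bars are 95% intervals) against the distance of each gene from Itgad in Mb (x axis), for the 199 flanking genes tested. Dotted lines mark a log2 fold change of 1 in either direction. The 4 called genes stand above the rest, 3 at the position of Itgad and Gdpd3 at 1.38 Mb on the side of lower positions.

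Gdpd3, an enzyme with lysophospholipase D activity that can form lysophosphatidic acid (ENSMUSG00000030703, chromosome 7, 126766334 to 126775649, plus strand), was the called gene that lies apart from Itgad, at a distance of 1379 kb. Its level in blood at 0h was 147.5, 107.7 and 111.3 CPM under the αD KO label and 6.24, 4.35 and 7.71 CPM under the WT label. In lung at 0h it was 113.7, 126.5 and 90.96 CPM against 5.86, 2.89 and 6.12 CPM. At 12 hours it was 74.2, 77.7 and 82.4 CPM against 6.13, 6.88 and 13.9 CPM in blood, and 160.2, 51.97 and 187.5 CPM against 3.24, 8.74 and 3.60 CPM in lung. The lowest library labelled αD KO was thus above the highest labelled WT in each pair and across all 24. Over the 24 libraries the log2 fold change was 4.16 (standard error 0.28, 95% interval 3.58 to 4.74, edgeR adjusted p = 3.7e-09). Per kb of exon its mean level was 2.88 CPM in the libraries labelled WT, rank 66 of the 304 genes, and 50.8 CPM in those labelled αD KO, rank 7.

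The 250 bases before the RefSeq start of Gdpd3 are shown because it was the called gene outside Itgad, and those before Ypel3, its next neighbour on the plus strand and not called, are shown beside them. Both are from RefSeq on GRCm38.p6, written 5′ to 3′ on the plus strand, with each CG in capitals.
Gdpd3, chr7:126766164-126766413: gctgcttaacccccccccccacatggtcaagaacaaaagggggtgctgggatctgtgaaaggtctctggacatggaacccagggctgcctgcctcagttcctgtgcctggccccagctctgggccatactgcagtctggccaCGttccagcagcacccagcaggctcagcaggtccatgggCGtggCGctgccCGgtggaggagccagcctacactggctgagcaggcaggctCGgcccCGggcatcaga
Ypel3, chr7:126776713-126776962: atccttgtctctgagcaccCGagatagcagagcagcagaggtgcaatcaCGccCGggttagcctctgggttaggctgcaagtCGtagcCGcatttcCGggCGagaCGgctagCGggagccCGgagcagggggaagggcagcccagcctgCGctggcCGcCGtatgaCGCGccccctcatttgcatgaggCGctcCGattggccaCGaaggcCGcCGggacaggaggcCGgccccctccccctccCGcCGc
The Gdpd3 window holds 6 CG and is 65.2% G or C. The Ypel3 window holds 23 CG and is 68.8% G or C. Over 32851 promoters of the same table and length the medians were 6 CG and 52.4%. Of the motifs searched on both strands, TATAAA is in 12.4% of those promoters, GGGCGG in 32.7%, CCAAT in 33.9% and CCGGAAG in 6.91%. None of these letters is in the Gdpd3 window, and the Ypel3 window holds 1 CCAAT. The 5′ end of Gm9967, a minus-strand transcript that reaches back into Gdpd3, lies inside the Ypel3 window.

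Of 3 tested genes annotated inside Itgad, 2 were called. Gm44850 (128215616 to 128220788), an antisense RNA, shares no exon bases with another gene. It had 9.64, 6.07 and 5.67 CPM in blood at 0h labelled αD KO and 0.0363, 0.0905 and 0 CPM labelled WT. Its log2 fold change over the 24 libraries was 6.73 (standard error 0.70, edgeR adjusted p = 7.3e-06). For lung at 12 hours it had 527 counts over the 3 libraries labelled αD KO and 0 over those labelled WT, and was at least 133-fold higher by a floor of 3 counts over the group. Of these counts, 9 are from library 1b and the rest from the libraries that go against their time label, and with 1b alone it was at least 9.06-fold higher. In lung at 0h the sums were 327 and 8 counts (306 and 8 without library 2 labelled αD KO), and in blood at 12 hours 37 and 1 counts, 48.6 times as high per library size (95% counting interval 8.19 to 1970). Without molecular identifiers such intervals and floors cover counting error only.

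4931431B13Rik (128192050 to 128203328), a processed transcript, shares 27.0% of its exon bases with other genes. Its level was 7.07, 7.20 and 3.71 CPM in blood at 0h labelled αD KO and 0.145, 0.543 and 0.295 CPM labelled WT, without overlap. The log2 fold change over the 24 libraries was 5.62 (standard error 0.68, edgeR adjusted p = 8.1e-05). Blood at 12 hours had 50 counts against 0, at least 21.9-fold higher by the same floor. In lung it had 284 counts against 9 at 0h and 548 against 2 at 12 hours. These were 269 against 9 and 5 against 2 without the 3 libraries that go against their time labels, with a log2 fold change of 5.80 (standard error 1.22, edgeR adjusted p = 0.999) and 2.86 (standard error 1.44, adjusted p = 1).

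Cox6a2, a cytochrome c oxidase subunit known from heart and skeletal muscle (128205435 to 128206387, minus strand), is the third gene inside Itgad that was tested. It reached 1.60, 0.918 and 0.853 CPM in blood at 0h labelled αD KO, where the WT label had 0.254, 0 and 0.253 CPM. Its libraries overlapped in the other 3 pairs, and it was not called by edgeR (log2 fold change 2.69, standard error 0.71, adjusted p = 1). Like both genes above, it passed the filter only through the libraries labelled αD KO, so its direction was set there. DESeq2 called it (adjusted p = 0.034) among 6 flanking genes, where 0.037% of all genes were called. The antisense gene Gm39091 and the pseudogene Gm17831, which overlaps the 5′ end of Itgad, were below the filter on low counts, with at most 0.372 and 0.134 CPM. Whether the authors counted by strand is not given in the sources used here. Reads of Itgad and of the minus-strand genes inside it therefore cannot be told apart where exons overlap. Reads from introns of Itgad, if any, could also be counted to these genes, Gm44850 among them, and this was not tested.

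**Figure D2:**
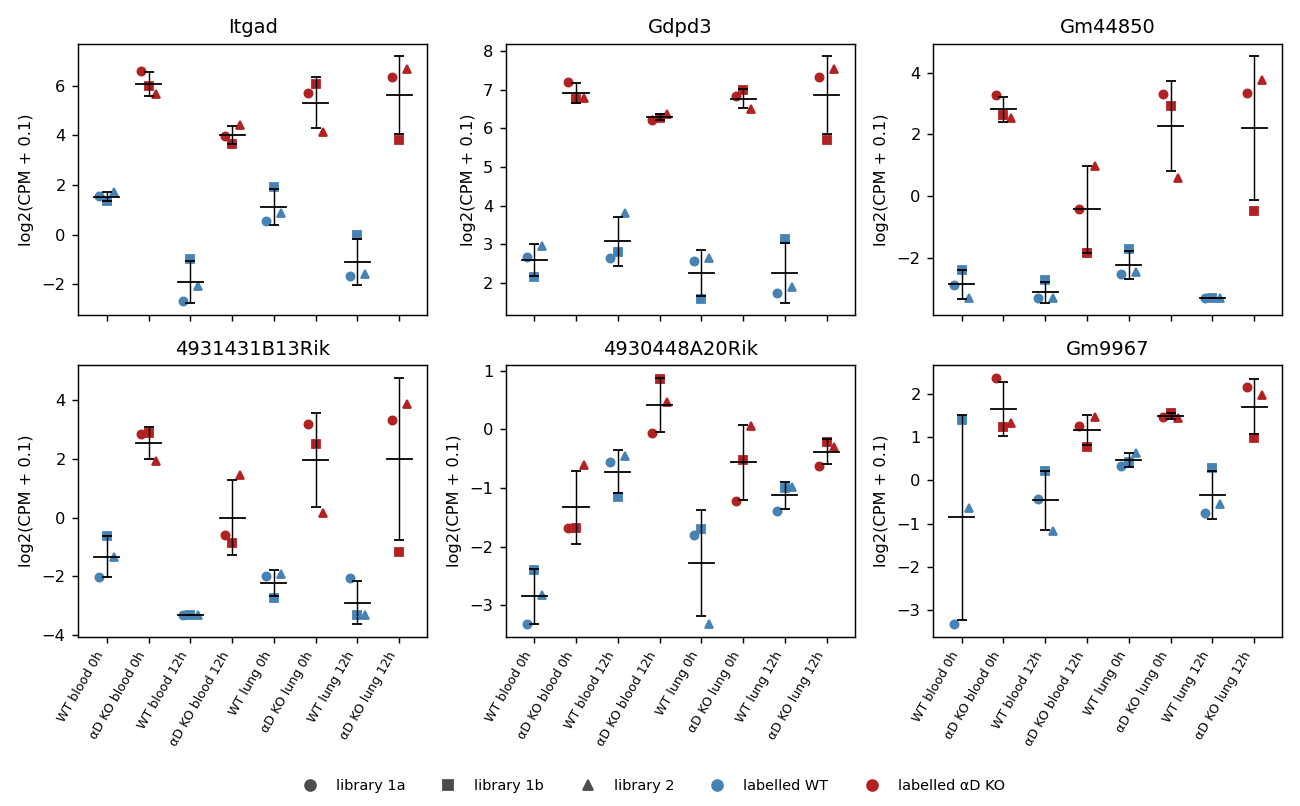
Level in each library, as log2(CPM + 0.1) (y axis), of the 5 genes whose libraries were apart in all 4 pairs and of Gm9967, by group (x axis); bars are the mean and SD of the 3 libraries, and the marker gives the library. Itgad and Gdpd3 labelled αD KO lie above every WT library, while the weaker levels of 4930448A20Rik overlap across groups though not within a pair.

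In 13 of 27145 genes (0.0479%) all 3 libraries of a label were apart from the other 3, in the same direction, in each of the 4 pairs of groups. Of the flanking genes tested, 5 of 199 did so, all higher in the libraries labelled αD KO. They were the 4 called genes and 4930448A20Rik. The last is a lincRNA (126740629 to 126742181) that lies 24.2 kb before Gdpd3. Its levels were low, 0.210, 0.212 and 0.556 CPM labelled αD KO against 0, 0.0905 and 0.0421 CPM labelled WT in blood at 0h, with 23 against 2 counts. At 12 hours in lung it had 0.552, 0.757 and 0.712 CPM against 0.282, 0.401 and 0.407 CPM. The second of the former is from library 1b, which does not go against its time label on the lung axis. In the fit without the 3 libraries that go against theirs, the lung value at 12 hours was 1.18 (standard error 1.64). It too passed the filter only through the libraries labelled αD KO. edgeR did not call it (log2 fold change 1.74, standard error 0.54, adjusted p = 1), and DESeq2 did, with an adjusted p of 0.0248. All 12 libraries of a label were apart from the other 12 in 6 of 27145 genes (0.0221%), 2 of them the flanking genes Itgad and Gdpd3.

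Gm9967, which overlaps the body of Gdpd3 on the minus strand (126768082 to 126776818), had 5.05, 2.26 and 2.41 CPM labelled αD KO and 0, 2.54 and 0.548 CPM labelled WT in blood at 0h, with overlap. In the other 3 pairs the libraries were apart, as in lung at 0h with 2.65, 2.83 and 2.61 CPM against 1.16, 1.24 and 1.46 CPM (log2 fold change without the 3 libraries 1.02, standard error 1.16). It was not called (log2 fold change 1.65, standard error 0.46, edgeR adjusted p = 1). It shares 13.6% of its exon bases with other genes.

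The genes that stand closest to Gdpd3 were not called. Mapk3 (ERK1, a kinase of growth factor signalling), which ends 515 bases before Gdpd3, had 136.8, 74.2 and 98.3 CPM labelled αD KO and 159.7, 63.1 and 114.6 CPM labelled WT in blood at 0h. Its groups overlapped there, and over the 24 libraries the log2 fold change was -0.16 (95% interval -0.52 to 0.20). Ypel3, a gene linked to growth arrest that begins 1.31 kb after Gdpd3, had a log2 fold change of 0.25 (95% interval -0.40 to 0.91). Within 100 kb of Gdpd3, 18 other genes were tested and 0 were called by edgeR, where 0.0442% of all genes were. Gm9967, 4930448A20Rik and the pseudogene Gm6939 were 3 with an unadjusted p under 0.05 (0.641% of all genes). The log2 fold changes of the 18 ran from -2.39 to 1.74, with 9 above 0. For 9 of the 14 that are protein coding, the 95% interval lay between -1 and 1.

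Between Gdpd3 and Itgad, 82 genes were tested and 0 were called, where 0.0442% of all genes were. An unadjusted p under 0.05 was found for 1 of the 82 (0.641% of all genes). That gene is Gm49368 (128062683 to 128128160), which shares 79.1% of its exon bases with other genes, Itgam among its overlaps. It had 10.3, 5.44 and 3.78 CPM labelled αD KO and 20.2, 10.6 and 18.4 CPM labelled WT in blood at 0h, and its log2 fold change was -1.28 (standard error 0.35, edgeR adjusted p = 1). Reads of Gm49368 and Itgam cannot be told apart where they overlap. The median log2 fold change of the 82 genes was 0.04, and for 45 of them the 95% interval lay between -1 and 1.

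The other nearest tested genes below Itgad were the pseudogene Gm5738 and Trim72, a membrane repair protein of muscle, and both were at 0.814 CPM or less in every library. Above Itgad, the nearest were 9130023H24Rik at 10.6 kb, Armc5 at 13.5 kb and Tgfb1i1 (Hic-5, a focal adhesion adaptor) at 23 kb. Armc5 had 7.07, 2.97 and 10.5 CPM labelled αD KO and 4.68, 3.89 and 7.08 CPM labelled WT in blood at 0h, with overlap. Its log2 fold change over the 24 libraries was 0.09 (95% interval -0.36 to 0.54). For 9130023H24Rik it was -0.22 (95% interval -0.80 to 0.37), and for Tgfb1i1 0.84 (95% interval -0.63 to 2.30). The interval of Tgfb1i1 is wide, and its level ran from 0 to 5.93 CPM.

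**Figure D3:**
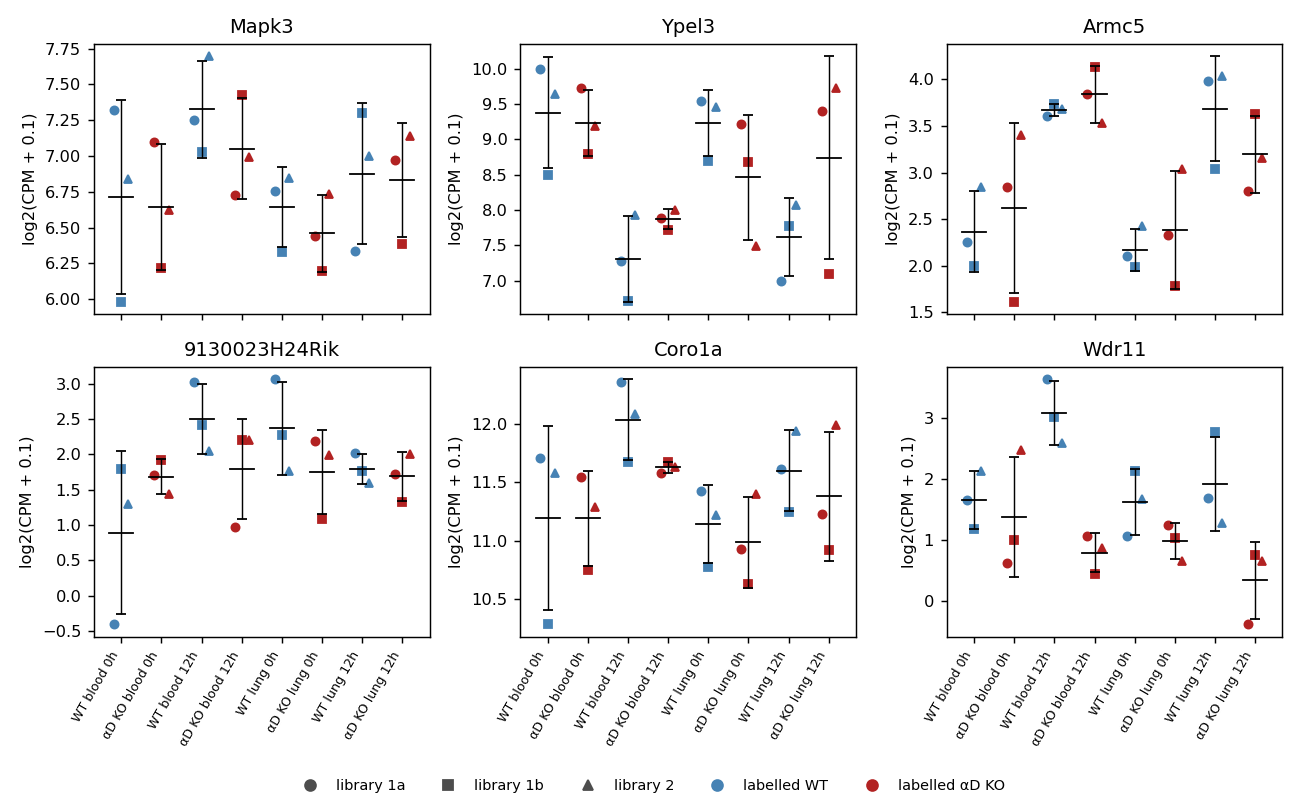
Level in each library, as log2(CPM + 0.1) (y axis; each panel has its own range), of 6 flanking genes that edgeR did not call, by group (x axis); bars are the mean and SD of the 3 libraries. Mapk3 and Ypel3 adjoin Gdpd3, Armc5 and 9130023H24Rik adjoin Itgad, and Wdr11 is apart between labels in blood and lung at 12 hours.

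Below Gdpd3, 49 genes were tested and 0 were called, where 0.0442% of all genes were. An unadjusted p under 0.05 was found for 5 of the 49 (0.641% of all genes). Among these was the lincRNA 1700123J17Rik, with 2.98, 0.413 and 4.31 CPM labelled αD KO and 0, 0.160 and 0 CPM labelled WT in lung at 12 hours. The first and the last of these values are from libraries that go against their time label. It overlapped between labels in the other 3 pairs, and its log2 fold change over the 24 libraries was 2.01 (95% interval 0.17 to 3.85). Without the 3 libraries that go against their labels it was 1.62 over the remaining libraries (standard error 0.82) and 2.96 in lung at 12 hours (standard error 2.19), with an adjusted p of 1 for both.

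On the far side, 44 tested genes lie over 1 Mb above Itgad, and 0 were called, where 0.0442% of all genes were. Among the 44, 1 had an unadjusted p under 0.05 (0.641% of all genes). That gene was Wdr11, a WD-repeat protein of membrane trafficking, 1368 kb above Itgad. At 12 hours in blood it had 2.00, 1.25 and 1.72 CPM labelled αD KO and 12.4, 8.04 and 5.92 CPM labelled WT, and in lung at 12 hours 0.663, 1.58 and 1.46 CPM against 3.10, 6.74 and 2.33 CPM. Both pairs were apart, and both pairs at 0h overlapped. Without the 3 libraries that go against their labels, the value in lung at 12 hours was -1.26 (standard error 0.97, edgeR adjusted p = 1). Over the 24 libraries the log2 fold change was -1.23 (standard error 0.34, edgeR adjusted p = 1). For blood at 12 hours alone it was -2.41 (standard error 0.41), which edgeR did not call (adjusted p = 0.962). DESeq2 called it (adjusted p = 0.00829), as did edgeR without the filter on low counts (log2 fold change -2.43, adjusted p = 0.00299), where 0.207% of all genes were called. No difference of Wdr11 between the times was called by the interaction test described below.

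Of the 199 genes tested, 106 that were not called had a 95% interval that reached past a log2 fold change of 1 in at least 1 direction, so a change of that size may have gone undetected in them at this depth. For 89 genes the interval lay between -1 and 1. Another 105 of the 304 genes were not tested, since their counts were below the filter. At an unadjusted p under 0.05 there were 13 flanking genes (8 higher and 5 lower in the libraries labelled αD KO) and 174 of all 27145 genes.

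Grouped by role, the flanking genes were called in 1 case outside Itgad. Of all genes tested over the 24 libraries, 0.0442% were called. Among 18 tested genes of cytokine receptors and immune signalling, 0 were called and the median log2 fold change was 0.02. Apobr, the receptor for apolipoprotein B48, had the smallest p, with -0.43 (standard error 0.16). Its libraries were apart in lung at 0h and blood at 12 hours. Inpp5f, an inositol phosphatase, had 0.42 (standard error 0.21), and Lat, the adapter of T cell receptor signalling, 0.91 (standard error 0.47). The edgeR adjusted p was 1 for each of these 3 genes.

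Among 20 tested genes of lipid, mitochondrial and other metabolism, 1 was called, Gdpd3, with 10 above 0, 10 below and a median of 0.01. Cln3, a lysosomal membrane protein, had -0.52 (standard error 0.23) and was apart in lung at 0h, with 125.0, 105.4 and 118.8 CPM labelled αD KO against 254.5, 169.8 and 215.9 CPM labelled WT. Without the 3 libraries, its value in lung at 0h was -0.95 (standard error 0.56). Its edgeR adjusted p over the 24 libraries was 1. Among 29 tested genes of chromatin and transcription, 0 were called and the values ran from -0.29 to 0.51 around a median of 0.03. The 3 with the smallest p were Maz (0.25) and Zfp764 (-0.29), both zinc finger proteins, and Setd1a (-0.27), a histone H3 lysine methyltransferase. Among 28 tested genes of RNA binding, translation and protein turnover, 0 were called and the median was 0.06. After Wdr11, the smallest p were those of Tial1, an RNA-binding protein (-0.27, standard error 0.20), and Bag3, a co-chaperone (0.67, standard error 0.56). Over all 27145 genes the median was 0.03, and 0.0442% were called. The 3 libraries that go against their time labels were also left out. In the same order, 0, 1, 0 and 0 genes of the 4 lists were then called, where 0.0244% of all genes were. The medians were -0.01, -0.10, -0.04 and -0.04 against 0.13 over all genes.

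None of the 5 flanking genes with the highest CPM was called over the 24 libraries. Coro1a, an actin-binding coronin of leukocytes, ran from 1244 to 5253 CPM and had a log2 fold change of -0.21 (95% interval -0.64 to 0.22). Il4ra, the α chain of the interleukin-4 receptor, ran from 168.9 to 2132 CPM and had -0.11 (95% interval -0.67 to 0.45). AI467606 had 0.05 (95% interval -0.46 to 0.55), and Xpo6, the nuclear exporter of actin, 0.15 (95% interval -0.24 to 0.55). Ypel3, described above, is the fifth of them.

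Each pair of groups was also tested alone, 3 libraries against 3. In blood at 0h, 2 of 150 flanking genes tested were called, Gdpd3 and Itgad, both higher in the libraries labelled αD KO. They were the only genes called among 17356 (0.0115%, both higher). The log2 fold change was 4.61 for Itgad (95% interval 3.83 to 5.39) and 4.31 for Gdpd3 (95% interval 3.75 to 4.88). The same-numbered libraries of this pair correlated in their deviations, and a fit blocked by number called 0 genes (edgeR adjusted p = 0.0777 for Gdpd3 and 0.0882 for Itgad). Leaving out library 1b labelled WT left 1 call, Gdpd3 (0.0056% of all genes), and leaving out any other library, or both libraries 1b, left 0 (0% of all genes). With the files of sample 1 summed, edgeR called 0 (0% of all genes). DESeq2 called 4 flanking genes (0.0116% of all genes), the others being Gm44850 and 4931431B13Rik.

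In lung at 0h, edgeR called 0 of 158 flanking genes and 0% of all 18232, with 9 and 340 at an unadjusted p under 0.05. DESeq2 called the same 4 genes as in blood (0.0162% of all genes). The log2 fold change was 4.39 for Itgad (95% interval 2.64 to 6.14) and 4.52 for Gdpd3 (95% interval 3.56 to 5.48). Without the 3 libraries that go against their time labels, in a fit of all 8 groups that pools the spread, the values in lung at 0h were 4.68 for Itgad (standard error 0.65, adjusted p = 0.0124) and 4.51 for Gdpd3 (standard error 0.55, adjusted p = 0.00332). Both were called, the only genes called there (0.00609%). Without the libraries 1b, 0 were called (0%). For blood at 12 hours, edgeR called 0 of 124 and 0% of 12596, with 13 and 505 at an unadjusted p under 0.05, and Itgad and Gdpd3 both had an adjusted p of 0.0807. The log2 fold change was 6.17 for Itgad (95% interval 4.63 to 7.71) and 3.14 for Gdpd3 (95% interval 2.32 to 3.97). DESeq2 called Itgad, Gdpd3 and, as lower, Wdr11 (0.0259% of all genes called). Without the libraries 1b, edgeR called Itgad (0.224% of all genes called).

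Among the lung libraries at 12 hours, edgeR called 0 of 145 and 0% of 16764, with 19 and 1390 at an unadjusted p under 0.05. The log2 fold change was 7.28 for Itgad (95% interval 4.93 to 9.64) and 4.70 for Gdpd3 (95% interval 3.01 to 6.38), both with an adjusted p of 0.598. Without the libraries that go against their labels, only library 1b labelled αD KO remained, and the pooled fit assumed that it varies like the other groups. The values were then 5.13 for Itgad (standard error 0.76, adjusted p = 0.0581) and 3.43 for Gdpd3 (standard error 0.59, adjusted p = 0.23), with 0 of all genes called (0%). With all libraries but 1, Itgad and Gdpd3 were both called without the library 1b labelled WT (2 of 158, where 1.11% of all genes were called), and Itgad without the library 1b labelled αD KO (1 of 154, where 0.0433% were). Without both libraries 1b, only the libraries that go against their time label remained under αD KO, and 42 of 148 flanking genes were called, where 30.1% of all genes were. DESeq2 called 6 flanking genes (0.333% of all genes), among them the lincRNA 1700123J17Rik and the 4 genes above. With all 8 groups in a single fit, which pools the spread, edgeR called Gdpd3 in each of the 4 pairs (0.00737% of all genes called in 3 pairs, 0.00368% in lung at 0h) and Itgad in all but lung at 0h.

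**Figure D4:**
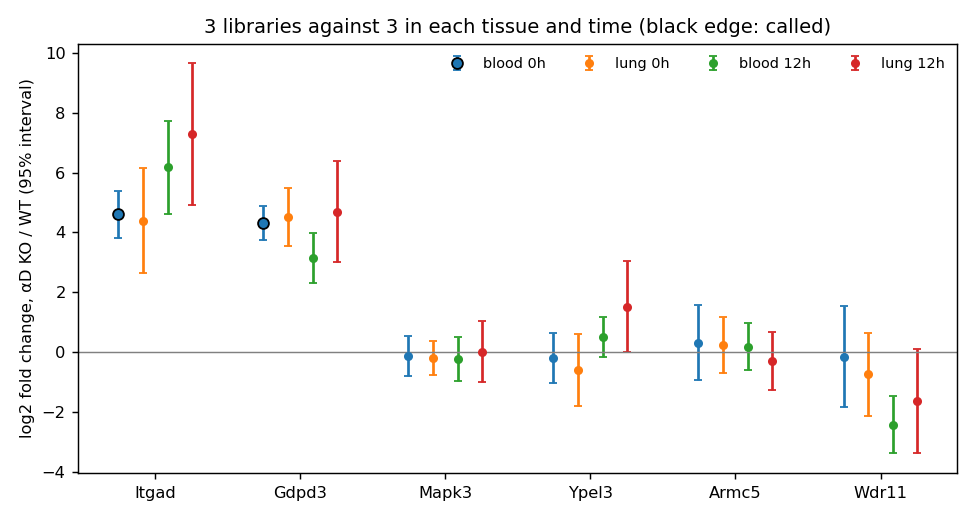
Log2 fold change between libraries labelled αD KO and WT (y axis, 95% intervals) of Itgad, Gdpd3 and 4 other flanking genes (x axis), in each tissue and time, with 3 libraries against 3. The intervals of Itgad and Gdpd3 lie above 2 in all 4 pairs, and those of Mapk3, Ypel3 and Armc5 reach 0 in each.

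The pairs at 0h and 12 hours, and those of blood and lung, share no library. The share of flanking genes whose 3 libraries were apart was 10 of 199 in blood at 0h (2.17% of all genes), 26 in lung at 0h (5.23%), 21 in blood at 12 hours (5.37%) and 23 in lung at 12 hours (8.59%). In lung at 0h, 18 of the 26 were lower in the libraries labelled αD KO, and in lung at 12 hours 16 of the 23 were higher. The 3 libraries that go against their time labels are in these lung groups. Without them, 48 flanking genes were apart in lung at 0h (2 libraries against 3, 15.7% of all genes), 26 of them lower, and 93 in lung at 12 hours (1 against 3, 46.8% of all genes), 42 of them higher. The smaller groups overlap less by their size, so these counts cannot be set against those above.

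Whether the difference between labels varied among the 4 pairs was tested with the 3 interaction terms together. edgeR called 0 of 199 flanking genes and 0% of 27145, with 15 and 1484 at an unadjusted p under 0.05, and DESeq2's likelihood ratio test called 0 flanking genes (0.209% of all genes). Without the 3 libraries that go against their labels, edgeR again called 0 (0%). Without the libraries 1b it called 16 of 172, where 8.36% of all genes were called, among them Itgad (adjusted p = 0.0206) and Gdpd3 (adjusted p = 0.0251), and the lung group at 12 hours labelled αD KO then held only libraries that go against their label. With all libraries, the adjusted p was 0.777 for Itgad and 1 for Gdpd3. The fitted log2 fold change of Itgad was larger at 12 hours than at 0h in both tissues, and this was not called with all libraries. Levels of Itgad themselves were lower at 12 hours in blood under both labels, from 50.7 to 96.5 CPM down to 12.5 to 21.2 CPM in the libraries labelled αD KO.

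The libraries labelled αD KO that had low Itgad in lung were those that lay towards WT 12 hours. Library 2 labelled 0h, at 1.029 on the lung axis, had 17.7 CPM, and library 1b labelled 12h, at 0.818, had 14.1 CPM. The other 4 lung libraries labelled αD KO, at 0.0691 to 0.192, had 51.9 to 102 CPM. Gdpd3 was 90.96 and 51.97 CPM in the first 2 and 113.7 to 187.5 CPM in the other 4. In all 6, both genes were above every library labelled WT. Without the 3 libraries that go against their labels, the same 4 flanking genes were called over the other 21 (0.0244% of all genes called). Without all 6 lung libraries labelled αD KO, 2 were called (Gdpd3 and Itgad), where 0.0196% of all genes were.

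The 5 genes most like Itgad were chosen by Spearman's rho of their level with that of Itgad over all 24 libraries, so a high rho is built in. It was 0.95 for Gm44850, 0.94 for 4931431B13Rik, 0.87 for Gm9967, 0.85 for Gdpd3 and 0.76 for Cox6a2. Gm44850, 4931431B13Rik and Cox6a2 passed the filter only through the libraries labelled αD KO. Within the 12 libraries labelled αD KO, which are among the 24 that chose the genes, rho was 0.94, 0.91, 0.85, 0.94 and 0.88 in the same order, and within the 12 labelled WT it was 0.62, 0.67, 0.34, -0.18 and 0.51. These are descriptions, since libraries of a group share tissue, time and depth, and the levels labelled WT were mostly near 0 except for Gdpd3.

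Genes called over the 24 libraries were also found on chromosome 7 beyond the flanking region. The 10 called genes of chromosome 7 begin between 116.5 and 139.25 Mb, a span of 22.7 Mb. The 4 inside the region were higher in the libraries labelled αD KO and the 6 outside it were lower. The 2 called genes on other chromosomes were higher too. Of all 12 called genes, 8 passed the filter on low counts through both labels. Gm44850 and 4931431B13Rik did not, so 2 of the 4 directions inside the region were set by the filter. The nearest outside was Dctn5, a dynactin subunit 6.01 Mb below Itgad, with a log2 fold change of -1.19 (standard error 0.18, edgeR adjusted p = 0.0028). Lrrc27, 10.99 Mb above it, had 1.54 to 5.14 CPM labelled αD KO and 6.61 to 19.9 CPM labelled WT, and its log2 fold change was -2.23 (standard error 0.21, adjusted p = 1.4e-06). The share called was 2.01% of the flanking genes tested, 0.513% of those that do not overlap Itgad (1 of 195), 0.266% of the 2259 other genes tested on chromosome 7 and 0.0081% of the 24687 on other chromosomes. The left-out integrin genes Itgal, Itgam and Itgax had -0.08, -0.81 and 1.22, each with an adjusted p of 1.

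Some flanking genes mark other leukocytes that a neutrophil gate could hold. Lat was highest in the library 2 labelled αD KO of blood at 0h, at 15.98 CPM, where the other 23 libraries had 0.344 to 4.21 CPM. T and NK cell markers, 9 of 9 with counts in every group, summed to 331.5 CPM at the highest in that group and to 7.30 to 32.7 CPM in the groups labelled WT. The B cell and platelet marker sums were also at their highest of all 24 libraries in this library, at 1294 and 672.6 CPM. Over the 24 libraries, Spearman's rho of Lat was 0.63 with the T and NK cell sum and 0.64 with the platelet sum, as a description. The part of these cells in the Lat level was not tested. Il21r, the interleukin-21 receptor, was 21.3 CPM in the same library and at most 9.12 CPM in the others. Over the 24 libraries its rho with the B cell sum was negative, at -0.28. That of Spn (CD43) with the T and NK cell sum was -0.28 as well. Bulk values cannot tell fewer cells of a type from less RNA per cell. The 7 marker lists were neutrophil, B cell, T and NK cell, monocyte and macrophage, erythroid, platelet and lung structural. Of these, 0 were apart in the same direction in all 4 pairs. The erythroid list alone was apart in 1 pair, higher in lung at 0h labelled αD KO. What other cells add to the differences between labels was not tested.

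The same region was read in WT alone at 12 hours after CLP against 0h. In WT blood, 15 of 135 flanking genes tested were called, 5 higher and 10 lower, where 13.5% of all genes were called (7.75% higher and 5.75% lower). In WT lung, 15 of 140 were called, 6 higher and 9 lower, where 9.02% of all genes were called (5.24% higher and 3.78% lower). Both shares of the flanking genes are near the background. Markers of other cells moved with the time as well. In WT blood the neutrophil sum was 29407 to 49689 CPM at 0h and 116407 to 212372 CPM at 12 hours, the B cell sum 275.3 to 1205 and 40.9 to 229.2 CPM, and the platelet sum 41.0 to 132.6 and 5.29 to 30.1 CPM, and the T and NK cell and lung structural sums were also apart, lower at 12 hours. In WT lung the neutrophil sum was 37768 to 53410 CPM at 0h and 78738 to 143640 CPM at 12 hours, and the B cell sum 409.7 to 765.1 and 35.3 to 85.2 CPM, while the other 5 sums overlapped. The monocyte and macrophage and erythroid sums overlapped in blood. The part of these cells in the changes with time was not tested. The genes called in both tissues numbered 6, which is 40% of each list. Over all genes, 816 were called in both tissues, 41.3% of the blood list and 60.9% of the lung list. Nsmce1, a subunit of the SMC5/6 complex, Sept1, a septin, and Spn (CD43, a leukocyte sialoglycoprotein) were higher in both. Tbx6, a T-box transcription factor, Kat8, a histone H4 lysine acetyltransferase, and Sephs2, a selenophosphate synthetase, were lower in both.

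Nsmce1 rose in WT blood from 4.28, 6.25 and 5.60 CPM to 87.3, 51.7 and 75.6 CPM (log2 fold change 3.50, standard error 0.31, edgeR adjusted p = 0.0018), and in WT lung by 2.55 (standard error 0.33). Itgad had the largest fall of the called flanking genes in WT blood, from 2.83, 2.44 and 3.16 CPM to 0.0583, 0.402 and 0.139 CPM (log2 fold change -3.84, standard error 0.93, edgeR adjusted p = 0.034). It was followed by the lincRNA Gm31897 (-3.82) and Tbx6 (-2.82). Among the larger falls in WT lung were those of the lincRNA Gm44892 (-3.14) and Tbx6 (-2.98). The largest rise there was that of Nupr1, a stress-induced nuclear protein, from 2.67, 5.01 and 2.03 CPM to 50.7, 11.7 and 60.6 CPM (log2 fold change 3.49, standard error 0.59, edgeR adjusted p = 0.015), and then that of Spn (3.17, standard error 0.69). Gdpd3 was called in neither tissue.

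**Figure D5:**
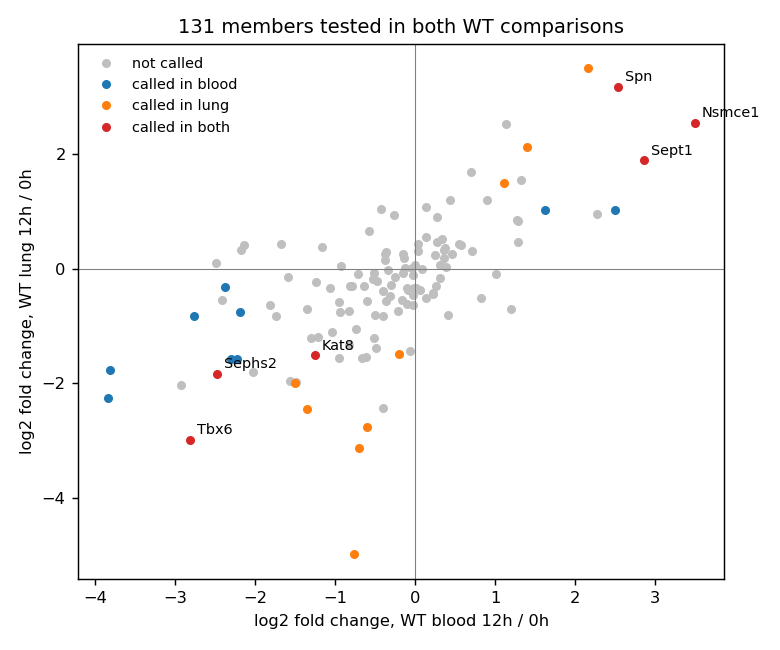
Log2 fold change at 12 hours against 0h in WT blood (x axis) and WT lung (y axis) for the 131 flanking genes tested in both, coloured by where edgeR called them. The 6 genes called in both are named, with 3 higher and 3 lower in both tissues.

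These calls rest on few libraries, and the share called over all genes moved with them. In WT blood, 2 flanking genes were called without 0h library 1a (0.811% of all genes), 24 without 0h library 1b (18.4%) and 1 without 0h library 2 (0.255%). Without 12h library 1a the count was 0 (0.102%), without 1b 14 (9.9%) and without 2 it was 0 (0.00999%). Without both libraries 1b it was 27 of 134 (23.1%). In WT lung, 0 were called without 0h library 1a or 2 (0% of all genes each) and 10 without 0h library 1b (5.03%). Without 12h library 1a the count was 0 (0%), without 1b 42 (25.3%) and without 2 it was 0 (0.122%). Without both libraries 1b it was 55 of 133 (37.2%). DESeq2 called 21 in blood (6.89% of all genes) and 28 in lung (5.64%), and edgeR with all 8 groups in a single fit called 8 (4.12%) and 3 (1.65%).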

How the data were processed

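The paper's methods describe full-length cDNA (SMART-Seq), tagmented libraries, paired-end sequencing and counting of uniquely mapped exonic reads. The submitters' processing notes name Trimmomatic 0.36, STAR 2.5.2b and the builds GRCm38 and mm10. The deposited values are raw counts per gene, neither normalized nor filtered, in 24 files. The counting tool and its strand setting are not given in the sources used here. Positions of the 304 genes equal those of GENCODE M21 (GRCm38), which gave the gene classes. Exons are shared with another gene for 119 of them, over 50% for 32, and such counts are uncertain.

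The genes and role lists were chosen with earlier results of these data known. Testing used edgeR 4.0.16 in R 4.3.3 (TMM, filterByExpr, quasi-likelihood F test, two-sided), with DESeq2 1.42.0 as an alternative, and tables in Python 3.11.15. The fit of all libraries has a term for each of the 4 tissue and time pairs and a shared genotype term. Standard errors and 95% intervals belong to the edgeR log2 fold changes. CPM values use TMM factors of all 24 libraries. The fits were tested on simulated counts. With 3 libraries against 3, an exact permutation test cannot give a p below 0.1.

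Deviations of same-numbered libraries from their group means correlated above 0.1 for every number in 4 of the 6 comparisons of 2 groups (αD KO against WT in blood at 0h, lung at 0h and blood at 12 hours, and WT blood at 12 hours against 0h). As no pairing is given in the labels, the main tests have no block. The alternatives were RLE factors, no filter, at least 10 counts in every library, DESeq2, the files of sample 1 summed, the library number as a block, the adjusted p alone, all 8 groups in a single fit, tissues alone and each library left out. Leaving out the 3 lung libraries, or the libraries 1b, was added after seeing the data.

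Genes named were Itgad and genes overlapping it, called genes, genes apart in all 4 pairs, the 3 nearest tested genes on each side, the 5 highest by CPM, the 3 smallest p of each role list, leukocyte markers, and the 3 largest called rises and falls in WT. Gm9967, Gm6939, Mapk3, 1700123J17Rik, Dctn5, Kat8 and Sephs2 were named after their values were seen. Symbols come from the reference table of gene names, and 141 of the 304 genes had a RefSeq promoter. Enrichment was not analysed here. A gene that this rule names is not reported here.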

Additional observations from a re-analysis of the deposited data

How the results depend on the processing

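Over all libraries, 4 flanking genes were called under RLE factors (0.0405% of all genes), without the filter (0.0261%) and with the files of sample 1 summed (0.031%). The count was also 4 with the library number as a replicate block (0.0479%), by adjusted p alone (0.0479%) and with any single library left out (0.0305% to 0.0409%). It was 1 with at least 10 counts in every library (Gdpd3, with 87 genes tested, 0.0672%) and 6 with DESeq2 (0.037%). Without the 6 lung libraries labelled αD KO it was 2 (0.0196%), in blood alone 3 (0.0202%) and in lung alone 1 (0.00431%). With the 3 libraries that lay apart left out (0.0244%), or with the libraries 1b left out (0.0552%), both chosen after seeing the data, it was 4. Gdpd3 was called under all 36 alternatives of this fit, with a log2 fold change of 3.67 to 4.58. Itgad lost its call in lung alone (5.67, adjusted p = 0.0801), Gm44850 without the lung libraries labelled αD KO (6.27) and in lung alone (6.81), and 4931431B13Rik in these (5.04 and 6.2) and in blood alone (5.02).

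Each count of flanking genes is followed here by the share of all genes called under the same setting. In blood at 0h the count of 2 became 4 with DESeq2 (0.0116%). It became 0 with the files of sample 1 summed, with the replicate block and without the libraries 1b (0% each). With a library left out it was 0 to 1 (at most 0.0056%). In lung at 0h the count of 0 became 2 without the filter (0.00463%), 1 with at least 10 counts (0.00905%) and 4 with DESeq2 (0.0162%). It was 1 with all 8 groups (0.00368%) and 2 with all 8 groups and the 3 libraries left out (0.00609%). In blood at 12 hours it became 4 without the filter (0.207%), 3 with DESeq2 (0.0259%), 2 with all 8 groups (0.00737%) and 1 without the libraries 1b (0.224%). In lung at 12 hours it became 5 without the filter (0.489%), 6 with DESeq2 (0.333%), 2 with all 8 groups (0.00737%), 42 without the libraries 1b (30.1%) and 0 to 2 with a library left out (at most 1.11%). In WT blood the count of 15 became 6 without the filter (2.25%), 23 with the files summed (15.9%), 8 with all 8 groups (4.12%), 27 without the libraries 1b (23.1%) and 0 to 24 with a library left out (at most 18.4%). In WT lung the count of 15 became 28 with DESeq2 (5.64%), 23 with the files summed (12.3%), 8 with the replicate block (6.01%), 3 with all 8 groups (1.65%), 55 without the libraries 1b (37.2%) and 0 to 42 with a library left out (at most 25.3%). The interaction count of 0 became 16 without the libraries 1b (8.36%). Under the other alternatives run it was 0 (0.209% with DESeq2's likelihood ratio test and 0% with the rest). With the replicate block the WT blood count became 19 (18.4%), and in lung at 0h and blood at 12 hours it stayed at 0 (0% each). In lung at 12 hours, WT lung over time and the fit of all libraries, the libraries 1a did not all deviate together, and shared numbers are there no pairing. The causes were not tested.

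Uncalled genes near 0 changed sign under some alternatives: Armc5 (-0.071 in lung alone, -0.010 without the libraries 1b, -0.034 to 0.15 with a library left out), Maz (-0.057 without the libraries 1b), Tial1 (0.049 in blood alone) and Trim72 (-0.32 with the replicate block, -0.51 in lung alone, -0.40 to 0.61 with a library left out).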
